A study of Mus musculus and synthetic construct with 3 samples.

Results

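Hemoglobin-positive hexagons were small areas in sections of mouse abdominal aorta that held globin RNA. They were defined on a spatial transcriptomic array by summing the unique molecular identifiers (UMIs, each counting 1 captured RNA molecule) of the adult globin genes Hba-a1, Hba-a2, Hbb-bs and Hbb-bt in hexagons with 12 μm sides. A hexagon was positive with 2 or more globin UMIs. Of 11650 hexagons with 50 or more genes, 126 (1.08%) were positive, and they lay in 17 of the 20 sections. Since globin UMIs chose these hexagons, their globin levels are given below as a description without a test.

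Hemoglobin carries oxygen in red cells as a tetramer of α and β chains, which are made from linked α and β globin genes on separate chromosomes. Globin mRNA is by far the most abundant mRNA of red cell precursors and remains in reticulocytes after the nucleus is lost, whereas mature red cells have no transcription. In the aortic wall, red cells are confined to the lumen and the small vessels of the adventitia unless the wall has torn or bled, and AngII-infused Apoe-/- mice are known for such intramural bleeding.

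Seq-Scope captures polyadenylated RNA of a frozen section on a surface of barcoded spots, so a hexagon is a small area that can hold several cells or part of one. The tested tissue was suprarenal abdominal aorta with abdominal aortic aneurysm (AAA) from 3 male Apoe-/- mice that received AngII by subcutaneous minipump for 4 weeks. The controls were the same segment from 3 male Apoe-/- mice infused with saline for the same time. All mice were 16 weeks old per the labels, lacked Apoe and ate a normal diet, and 3 of the 5 AngII-infused mice had developed AAA. Aortas were flushed with saline through the left ventricle before freezing, which bears on any blood-derived RNA, and 1 AAA and 1 control aorta were embedded together in each of 3 pairs. Each condition had 10 sections of 10 μm. Kept hexagons held 524124, 180128 and 213126 UMIs in AAA mice 1 to 3 and 58921, 30531 and 30283 UMIs in control mice 1 to 3, so control values rest on far fewer molecules.

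The globin genes are shown first, because near-identical copies limit which of them a read can be given to. Each has 3 exons. On GRCm38, Hba-a1 lies at chr11:32283511-32284465 and Hba-a2 at chr11:32296489-32297298, both on the plus strand. Hbb-bs lies at chr7:103826534-103828096 and Hbb-bt at chr7:103812524-103813996, both on the minus strand. The coding sequences of Hba-a1 and Hba-a2 (429 bases each) differed at 1 base, C381T, counted from the first base of the start codon with the base of Hba-a1 first. Those of Hbb-bs and Hbb-bt (444 bases each) differed at C417T, with the base of Hbb-bs first. The stretches around these bases, from coding base 354 to 408 for the α genes and 390 to 444 for the β genes, are printed with the differing base in capitals.
Hba-a1: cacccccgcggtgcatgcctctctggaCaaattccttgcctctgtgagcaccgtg
Hba-a2: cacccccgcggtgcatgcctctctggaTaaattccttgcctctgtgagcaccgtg
Hbb-bs: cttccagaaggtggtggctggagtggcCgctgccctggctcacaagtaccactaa
Hbb-bt: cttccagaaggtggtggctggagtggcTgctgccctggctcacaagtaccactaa
Of all 50-base windows of the Hba-a1 transcript, 67.5% were also found in Hba-a2, and 86.9% of those of Hba-a2 were found in Hba-a1. For Hbb-bs and Hbb-bt the shares were 65.8% and 58.3%. The split of UMIs within the α pair and within the β pair is therefore uncertain.

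Most positive hexagons were barely so. Of the 126, 90 held exactly 2 globin UMIs, 8 held 3, 17 held 4 to 9 and 11 held 10 or more. Just inside the threshold, the 90 hexagons with 2 globin UMIs had a median of 93 UMIs and 87.5 genes. Just outside it, 1016 hexagons with 1 globin UMI had a median of 81 UMIs and 75 genes. The 11 hexagons of 10 or more globin UMIs carried 367 of the 669 globin UMIs in positive hexagons (54.9%). Positive hexagons were also deeper in other RNA, with a per-mouse median of 86.3 non-globin UMIs, against 73.5 in the other kept hexagons (mean difference 12.8 ± 13.3, SD over 6 mice, higher in 5 of 6). By an exact sign-flip permutation test over the 6 within-mouse differences this gave p = 0.0938, where the smallest p this design allows is 0.0312.

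The share of kept hexagons that were positive was low in all 6 mice and varied most among controls. It was 1.03% (57 of 5543), 1.17% (23 of 1964) and 0.485% (13 of 2681) in AAA mice 1 to 3. In control mice 1 to 3 it was 2.30% (15 of 652), 3.83% (15 of 392) and 0.718% (3 of 418). The mean was 0.895 ± 0.362% in AAA and 2.28 ± 1.55% in controls (SD, n = 3 mice each), and the groups overlapped. An exact two-sided permutation test over mice gave p = 0.3, where 3 against 3 mice cannot go below 0.1. Within the embedding pairs the AAA mouse had the lower share in 3 of 3, and the exact sign-flip permutation test over pairs gave p = 0.25, the smallest that 3 pairs allow. Without control mouse 2 the difference of means fell to -0.614 percentage points, against -1.39 with all mice. When every hexagon was thinned to 50 UMIs, so that depth could not set the share, it averaged 0.386 ± 0.0786% in AAA and 1.64 ± 1.31% in controls. In that setting and at 75 or more genes (1.07% in AAA, 4.24% in controls) every control mouse lay above every AAA mouse, giving the smallest possible exact permutation p of 0.1. The lowest control, mouse 3, was at 0.478% and 2.17% in these settings. AAA mouse 1, the highest AAA mouse, was at 0.451% and 1.36%. The values of control mouse 3 rest on at most its 3 positive hexagons.

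Globin UMIs as a share of all UMIs in kept hexagons showed 1 mouse apart from the rest. They made up 0.144%, 0.144% and 0.105% in AAA mice 1 to 3, and 0.226%, 0.950% and 0.0826% in control mice 1 to 3. Control mouse 2 stood highest and control mouse 3 lowest, so the controls spanned the AAA values. The means were 0.131 ± 0.0224% in AAA and 0.419 ± 0.465% in controls (exact permutation p = 0.4). Leaving out control mouse 2 brought the difference of means from -0.288 to -0.0232 percentage points. Leaving out the hexagons of 10 or more globin UMIs gave 0.123% in AAA and 0.176% in controls (exact permutation p = 0.4).

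**Figure D1:**
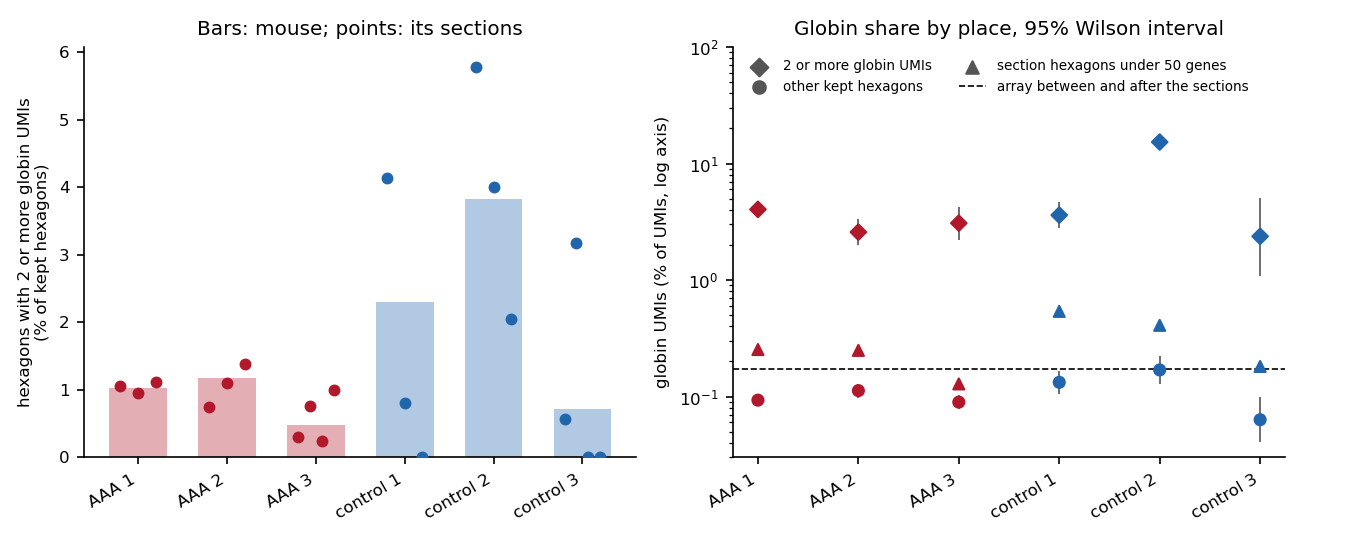
Left: percentage of kept hexagons with 2 or more globin UMIs in each mouse (bars) and each of its sections (points). Right: globin UMIs as a percentage of all UMIs (log axis, 95% Wilson intervals) in positive hexagons (diamonds), other kept hexagons (circles) and section hexagons under 50 genes (triangles), with the level between and after the sections dashed at 0.172%; the positive hexagons of control mouse 2 stand highest at 15.3%.

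Positive hexagons held only part of the globin RNA on the array. In them globin was 4.94% of UMIs (95% Wilson interval 4.59 to 5.32%), against 0.0993% (0.0933 to 0.106%) in the other kept hexagons. These intervals, and all others given here, cover counting error only. Section hexagons with under 50 genes, which the gene minimum removed, held 3737 globin UMIs at 0.239% of their UMIs, and 359 of them had 2 or more. The array between and after the section outlines held 831 globin UMIs at 0.172%, beside 0.162% in all kept section hexagons pooled. Some section tissue may lie outside the outlines, since these were placed to within an SD of 166 μm. Between and after the outlines only 17 of 85896 hexagons reached 2 and none exceeded 3. Of the globin UMIs inside sections, positive hexagons took 14.4%, 6.34% and 4.17% in AAA mice 1 to 3 and 7.85%, 32.6% and 1.86% in control mice 1 to 3. Hexagons under 50 genes took 60.1%, 72.2% and 72.5% in the AAA mice and 81.7%, 60.8% and 92.2% in the control mice. The same hexagons held 46.1%, 59.9% and 68.4% of all section UMIs in the AAA mice and 65.2%, 78.3% and 84.4% in the control mice, so the globin share exceeded the share of all UMIs in each mouse but control mouse 2. Over all barcodes inside the sections, globin was 0.174% of UMIs in AAA and 0.374% in controls (exact permutation p = 0.3).

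The 11 hexagons of 10 or more globin UMIs were found in 3 mice. AAA mouse 1 had 6 of them, with 62, 23, 18, 10, 10 and 10 globin UMIs. Control mouse 2 had 4, with 100, 68, 34 and 12, and control mouse 1 had 1, with 20. Globin made up 7.14% to 55.2% of their UMIs (median 15.8%), beside 81 to 153 UMIs of other genes. The globin UMIs came from 6 to 44 separate barcodes per hexagon (median 16), and no barcode gave more than 10 of them. AAA mice 2 and 3 and control mouse 3 reached at most 7, 6 and 2 globin UMIs in a hexagon.

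**Figure D2:**
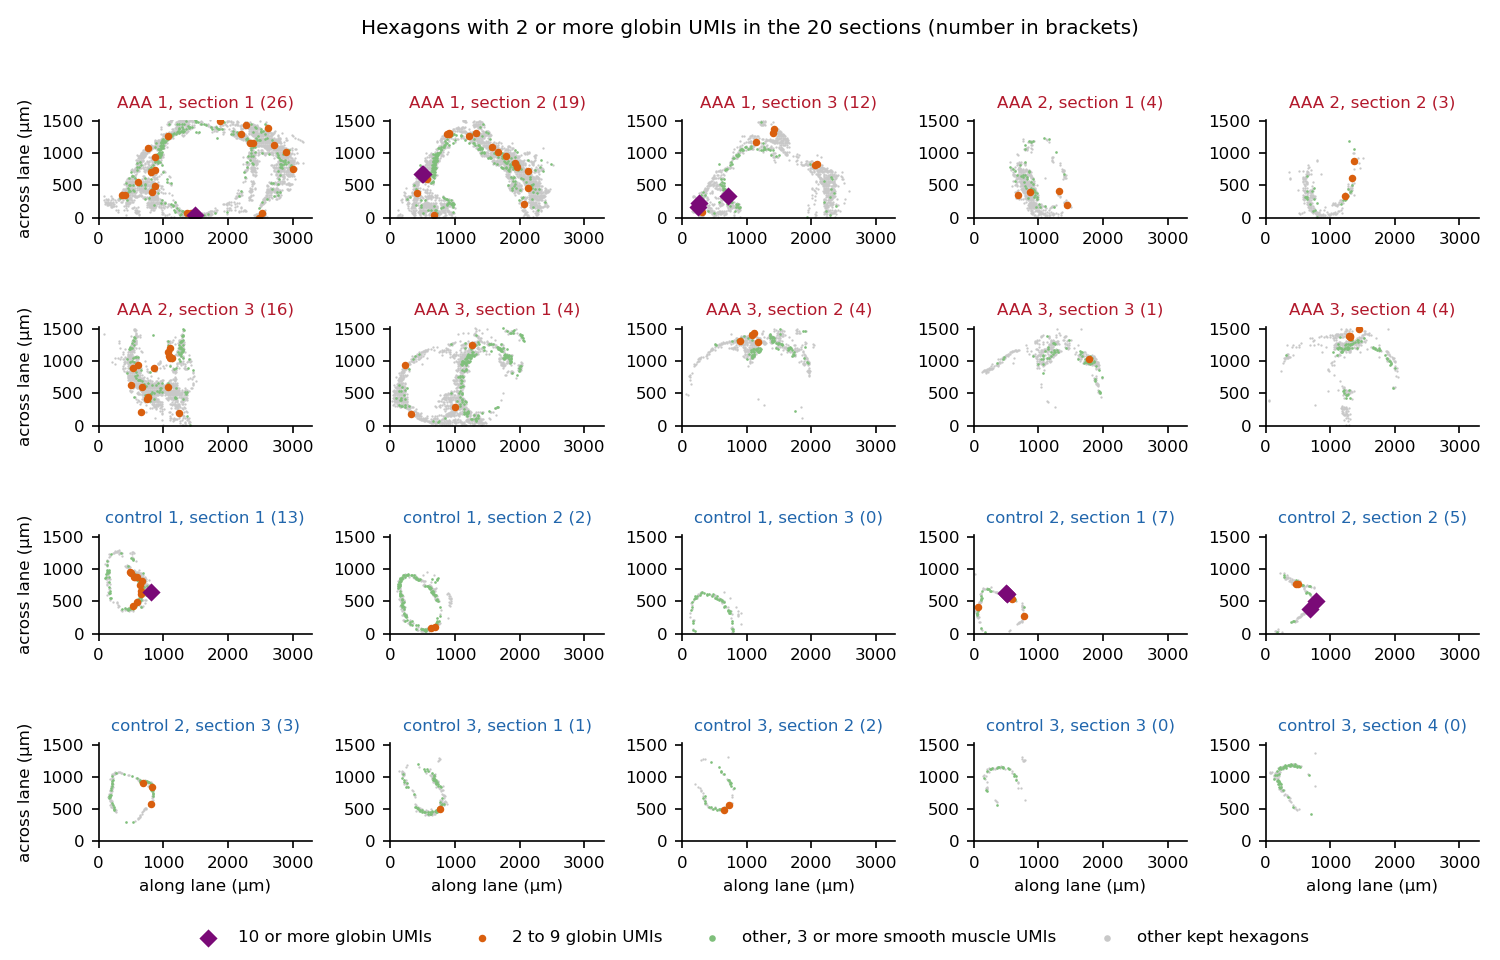
Position of kept hexagons in the 20 sections, AAA sections above control sections, both axes in μm along and across the array lane. Purple diamonds have 10 or more globin UMIs, orange points 2 to 9, green points are other hexagons with 3 or more smooth muscle UMIs and grey points the remaining kept hexagons; numbers in brackets count the positive hexagons, from 0 to 26.

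Among the 669 globin UMIs of positive hexagons, Hba-a2 gave 411, Hbb-bs 194, Hbb-bt 46 and Hba-a1 18. α globin made up 64.1% of them, and 70.9% of the globin UMIs in the other kept hexagons. By mouse, the α share was 68.8%, 72.9% and 61.8% in AAA mice 1 to 3 and 47.4%, 61.4% and 50% in control mice 1 to 3. Each control mouse lay below each AAA mouse, but AAA mouse 3 (21 α and 13 β UMIs) and control mouse 2 (148 and 93) were nearly equal. The value of control mouse 3 rests on 3 α and 3 β UMIs. Both α and β globin were present in 73 positive hexagons, α alone in 40 and β alone in 13. Each of the 11 hexagons of 10 or more globin UMIs held both. In 10 positive hexagons all globin UMIs came from 1 barcode. The embryonic and theta globin genes Hba-x, Hbb-bh1, Hbb-bh2, Hbb-y, Hbq1a and Hbq1b had 0 UMIs in positive hexagons.

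**Figure D3:**
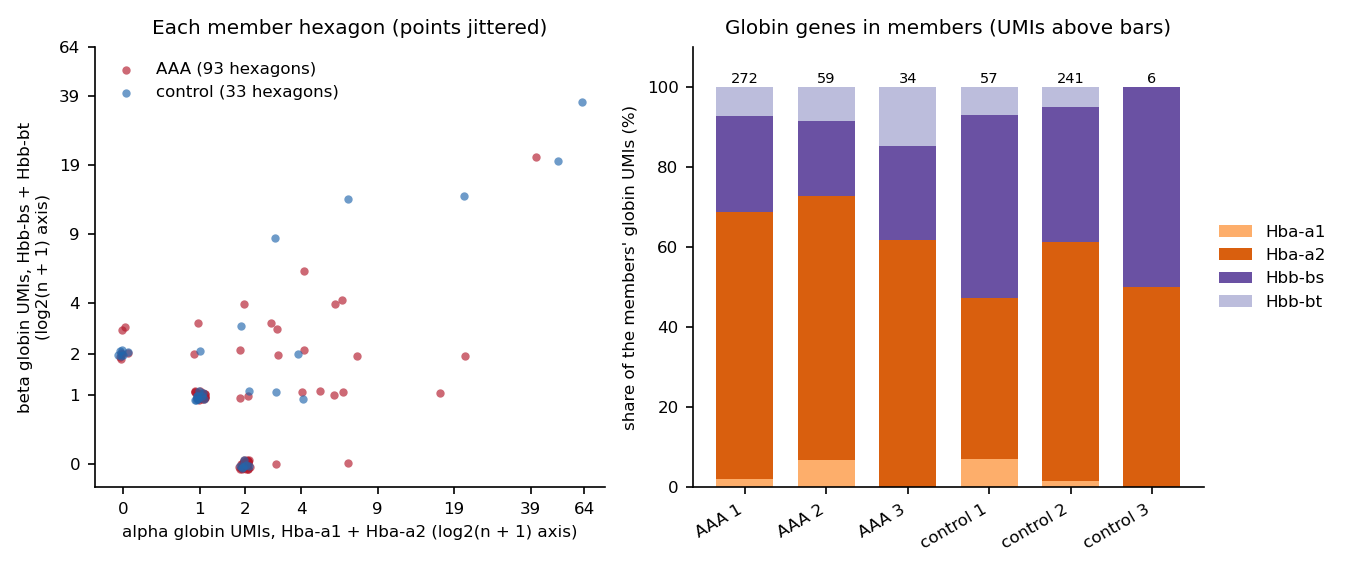
Left: α globin UMIs (Hba-a1 + Hba-a2) against β globin UMIs (Hbb-bs + Hbb-bt) of each positive hexagon, both on log2(n + 1) axes, 93 AAA and 33 control hexagons. Right: share of each globin gene among the globin UMIs of the positive hexagons of each mouse, with the number of globin UMIs above the bar; Hba-a2 is the largest part except in control mouse 1, where Hbb-bs is, and control mouse 3, where both are equal.

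The way reads were assigned to genes changed the α count. Over the whole matrix Hba-a2 had 5790 exonic UMIs but 392 UMIs when reads over whole genes, introns included, were counted. Hba-a1 (435 exonic, 474 whole-gene), Hbb-bs (2398, 2434) and Hbb-bt (610, 612) differed little between the 2 counts. The reason for the loss of Hba-a2 was not tested. On whole-gene counts, the positive share averaged 0.243% in AAA and 0.892% in controls (exact permutation p = 0.2).

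Alas2, the red cell form of the first enzyme of heme synthesis, was the red cell gene other than globin that stood out in these hexagons. It lies at chrX:150547375-150570638 on the plus strand, and it was singled out after its values had been seen. Positive hexagons held 7 Alas2 UMIs in 6 hexagons, and the 11524 other hexagons held 18, which is 5.44 and 0.176 per 10000 non-globin UMIs. Per mouse the UMIs in positive hexagons were 4, 0 and 0 in AAA and 1, 2 and 0 in control mice. Thus Alas2 was found there in 3 of 6 mice, and the UMI of control mouse 1 lay in a hexagon of 2 globin UMIs. The mean within-mouse difference was 4.36 ± 5.78 per 10000 (SD, n = 6; exact sign-flip permutation p = 0.25). In edgeR's quasi-likelihood test the gene did not pass the filter on low counts. Without that filter, 1377 of 19378 genes passed, and Alas2 was the only one of them higher in positive hexagons. Its log2 fold change was 2.40 (SE 0.757, edgeR adjusted p = 0.0286), in a fit where the median over all genes was -2.25.

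By globin level, most Alas2 UMIs of positive hexagons lay in the strongly positive ones. Those of 10 or more globin UMIs held 6 Alas2 UMIs among 1206 non-globin UMIs (49.8 per 10000, 95% Wilson interval 22.8 to 108.1), in 5 of the 11. Hexagons with 2 to 9 globin UMIs held 1 (0.858 per 10000, 0.151 to 4.86). Hexagons with 1 and with 0 globin UMIs held 2 and 16, at 0.205 and 0.173 per 10000, and the array between and after the sections was at 0.415. Few UMIs of the remaining red cell genes were found. Of the 30 in the list, 25 had a UMI in kept hexagons and 10 in positive ones, beside 19378 and 5121 of all non-globin genes. Slc4a1 (the anion exchanger band 3), Bpgm, Slc25a37 (the mitochondrial iron importer mitoferrin) and Car2 had 0 among 12867 non-globin UMIs, which allows up to 2.33 per 10000. In other hexagons these genes were at 0.0196, 0.557, 0.567 and 0.430 per 10000. These levels lie below that limit, so the 0 UMIs cannot show a difference. In the 11 hexagons of 10 or more globin UMIs alone, 0 UMIs allow up to 24.9 per 10000, so a level well above that of other hexagons would not be detectable there. Prdx2, an abundant red cell peroxidase, had 4 UMIs (3.11 per 10000, against 1.99 in other hexagons). Fech, which inserts iron into heme, had 2 (1.55 against 1.37). The list as a whole stood at 17.9 per 10000 in positive hexagons (23 UMIs), 11.7 in the other hexagons (1193 UMIs) and 12.3 on the array between and after the sections. Alas2 alone gave 7 of these 23 UMIs but only 18 of the 1193. The list was higher in positive hexagons in 3 of 6 mice. None of its genes passed the low-count filter.

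**Figure D4:**
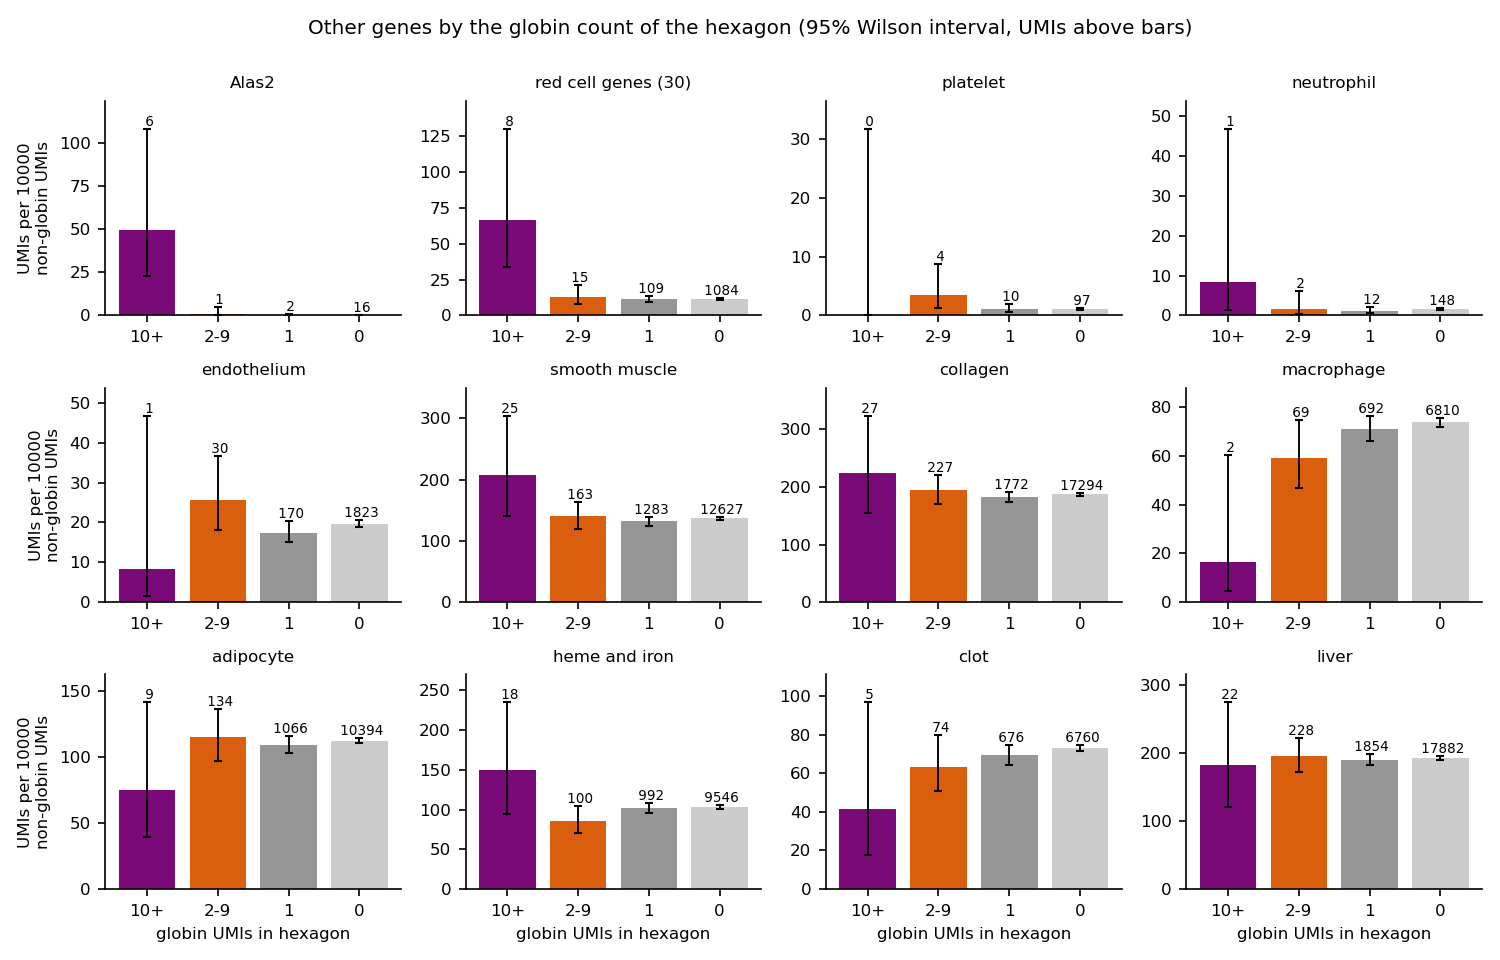
UMIs of Alas2 and of 11 gene lists per 10000 non-globin UMIs, in hexagons grouped by their globin UMIs (10 or more, 2 to 9, 1 and 0), with 95% Wilson intervals for counting error and the number of UMIs above each bar. Alas2 reached 49.8 in the first group and was below 1 in the other groups, while the liver list stayed between 182 and 196 in all 4.

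Other blood cells left few molecules in positive hexagons. The platelet list (Pf4, Ppbp and others) had 4 UMIs, 3.11 per 10000 against 1.05 in the other hexagons. The neutrophil list (S100a8, S100a9 and others) had 3 UMIs, 2.33 against 1.56. Of lymphocyte and antigen presentation genes, 31 UMIs were found, 24.1 against 19.7. The lowest and highest mice overlapped for each of these lists, and 2 of 6 mice were higher in positive hexagons for each.

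Positive hexagons also held RNA of wall genes and of genes foreign to the aorta. They contained 5121 non-globin genes, 2919 of them with 1 UMI and 55 with 20 or more. The 5 genes of highest count were Mgp (122 UMIs), Alb (108), Col3a1 (87), Mptx1 (85) and Actb (73), and the same 5 led the other hexagons. Alb, the liver's albumin, and Mptx1, a pentraxin of the mouse intestine, are not aortic genes. Alb was at 83.9 per 10000 in positive hexagons, 86.7 in other hexagons and 95.7 between and after the sections. Mptx1 was at 66.1 per 10000 in positive hexagons, 57.6 in other hexagons, 92.5 between and after the sections and 304.7 in the tissue and array before the first section. Both were thus at a higher level between and after the sections than in either class of hexagon. Wall RNA lay between and after the sections too. There the smooth muscle list (Acta2, Tagln and others) was at 163 per 10000, against 146 in positive and 136 in other hexagons. The collagen list was at 146 there, against 197 and 186. Mgp was at 118 there, against 94.8 and 142.7, and Actb at 76.9, against 56.7 and 72.7. The part of this background in the levels of positive hexagons was not tested.

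Mgp, which encodes the calcification inhibitor matrix Gla protein, was lower in positive hexagons in 5 of 6 mice. Its level was 117.6, 44.9 and 93.5 per 10000 in positive hexagons of AAA mice 1 to 3, against 132.5, 125.9 and 196.9 in their other hexagons. In control mice 1 to 3 it was 91.9, 59.9 and 161.9 in positive hexagons, against 115.8, 92.0 and 135.0. The edgeR fit gave a log2 fold change of -0.98 (SE 0.318, adjusted p = 0.476). Without AAA mouse 1 it passed the threshold (-1.23, edgeR adjusted p = 0.0210), as it did without control mouse 3 (-0.80, edgeR adjusted p = 0.00107). Mgp also passed on whole-gene UMIs (-1.54) and with no low-count filter (-3.14), but in both fits the typical gene was lower too. On whole-gene UMIs 42 of 2330 genes passed, all of them lower, and the median gene stood at -1.20. With no low-count filter 1377 of 19378 passed, 1376 of them lower, and the median gene stood at -2.25. The change of Mgp was -0.45 against other hexagons within 100 μm (edgeR adjusted p = 0.80) and -0.04 with 1 or more globin UMIs (edgeR adjusted p = 0.998). It was -0.59 with library size alone and -0.65 at 75 or more genes. Actb, the cytoskeletal β actin, was lower in 6 of 6 mice at 56.7 against 72.7 per 10000 (log2 fold change -0.81, SE 0.347, edgeR adjusted p = 0.912). Col3a1, the α1 chain of type III collagen, was at 72.7, 58.3 and 112 per 10000 in positive hexagons of AAA mice 1 to 3, against 64.5, 52.5 and 66.3 in their other hexagons. In control mice 1 to 3 it was at 46.0, 52.4 and 40.5, against 33.7, 33.2 and 38.7. The value was higher in positive hexagons in 6 of 6 mice, but in control mouse 3 it rests on 1 UMI, and the edgeR log2 fold change was 0.07 (SE 0.341, adjusted p = 0.969).

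Across all genes other than globin, no gene passed the test between positive and other hexagons of the same mouse. Of 216 genes tested with edgeR's quasi-likelihood test, with the mouse as a block, 0 (0%) passed an adjusted p of 0.05 and 9 (4.17%) had an unadjusted p under 0.05. DESeq2 also called 0 and had 9 at an unadjusted p under 0.05. The median log2 fold change of all 216 was -0.24, and it was -0.01 when scaled by library size alone, so values near -0.24 are at the level of the typical gene.

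The gene lists were summed over mice, and these sums mix conditions, since control mice gave a larger share of the UMIs of positive than of other hexagons. The smooth muscle list (Acta2, Tagln and others) had 188 UMIs at 146 per 10000, against 136 in other hexagons. By condition it was at 96.3 against 119 in AAA and at 303 against 268 in controls, and it was higher in 3 of 6 mice. Of its 11 genes 5 were tested and 0 passed, with a median log2 fold change of -0.66, so the summed level and the fitted median differed in sign. Tagln, an actin-binding protein of contractile smooth muscle, had a within-mouse log2 fold change of 0.13 (SE 0.373, edgeR adjusted p = 0.969), and Acta2, smooth muscle α actin, of -0.57 (SE 0.339, edgeR adjusted p = 0.969). The collagen list had 254 UMIs at 197 against 186 per 10000. By condition it was at 235 against 197 in AAA and at 80.5 against 103 in controls, and it was higher in 2 of 6 mice, with 5 genes tested, 0 passing and a median of -0.10, again of the other sign. The macrophage list was at 55.2 against 73.4 per 10000, with 2 genes tested (Ctsb and Ctsd, both lysosomal cathepsins) and a median of -0.61. The adipocyte list was at 111 against 112, the liver list at 194 against 193 and the endothelial list at 24.1 against 19.5 per 10000.

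No gene that handles blood products passed the test. The heme and iron list had 118 UMIs at 91.7 per 10000, against 103 in other hexagons. Its 3 tested genes were Fth1, the ferritin heavy chain, Hp, the hemoglobin-binding plasma protein haptoglobin, and Trf, the iron carrier transferrin, with 0 passing and a median log2 fold change of -0.55. Hp had 62.8 per 10000 in positive hexagons of AAA mouse 2 (14 UMIs) and 0 in those of AAA mouse 3, against 24.5 and 11.3 in the other hexagons of these mice. The study also listed Hp among the markers of its adipose cluster, and the source of these UMIs was not tested. Trf was at 25.6 against 34.5 per 10000, lower in 6 of 6 mice. The clotting list, with fibrinogen and fibronectin genes, was at 61.4 against 72.7 per 10000, with 4 genes tested, 0 passing and a median of -0.45.

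The strongly positive hexagons carried wall genes as well. In the 11 with 10 or more globin UMIs, smooth muscle genes gave 25 UMIs (207 per 10000, 141 to 304.2), collagen genes 27 (224, 154 to 324) and macrophage genes 2 (16.6, 4.55 to 60.3). In hexagons with 0 globin UMIs these lists were at 136, 187 and 73.6 per 10000. Conditions mix in these pooled values, since 5 of the 11 hexagons lie in control mice, whose other hexagons had 268 smooth muscle and 36.2 macrophage UMIs per 10000, against 119 and 78.1 in AAA mice. Bsg, the membrane glycoprotein basigin that red cells carry, had 6 UMIs in 5 of the 11 (49.8 per 10000, against 11.9 in all hexagons that were not positive) and was picked after its values were seen. Over all positive hexagons the within-mouse log2 fold change of Bsg was -0.34 (SE 0.544, edgeR adjusted p = 0.969). In the 11, Tagln (66.3 against 23.7) and Mptx1 (124 against 57.6) were also higher than in hexagons that were not positive, and Actb was lower (41.5 against 72.7).

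Between conditions, positive hexagons held too few molecules for a broad comparison. Summed per mouse they had 6463, 2229 and 1070 non-globin UMIs in AAA and 1523, 1335 and 247 in controls. Only Mgp, Mptx1 and Alb passed the low-count filter, and 0 of 3 (0%) passed the edgeR test (0 at an unadjusted p under 0.05, and 0 with DESeq2). Mgp had a log2 fold change of 0.34 (SE 0.343, edgeR adjusted p = 0.636) for AAA over control. In these sums, fewer cells of a type and less RNA per cell cannot be told apart. The test of whether the contrast of positive with other hexagons differed between AAA and control found 0 of 370 genes (0%), with 20 (5.41%) at an unadjusted p under 0.05. DESeq2 found 0 and 15 at those thresholds. The median log2 difference of the 370 was 0.67, against -0.01 when scaled by library size alone, where 0 genes passed as well.

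With the requirement lowered to 1 or more globin UMIs, a comparison added after the data had been seen, 965 AAA and 177 control hexagons could be compared. Of 153 genes tested with edgeR, 13 (8.5%) passed, 5 higher and 8 lower in AAA. Contractile genes were lower. Tagln was at 20.3, 16.6 and 26.0 per 10000 non-globin UMIs in AAA mice 1 to 3, against 53.97, 60.9 and 58.1 in control mice 1 to 3 (log2 fold change -1.55, SE 0.261, edgeR adjusted p = 8.18e-07). Myl9, the regulatory myosin light chain, was at 15.3, 17.0 and 21.9, against 55.1, 43.2 and 25.8 (-1.53, SE 0.273, edgeR adjusted p = 2.80e-06). Acta2 was at 38.3, 43.2 and 50.3, against 114.7, 74.7 and 96.9 (-1.25, SE 0.236, edgeR adjusted p = 8.64e-06). Flna, Tpm2, Myl6, Cpe and Rps7 were also lower. Higher in AAA were Col1a1 (21.4 ± 4.72 against 8.15 ± 4.14 per 10000, log2 fold change 1.66), Igfbp4, an IGF-binding protein of fibroblasts (26.9 ± 8.97 against 14.9 ± 9.50), Ctsd (22.2 ± 4.76 against 7.21 ± 3.71), Rps19 and the noncoding RNA Bc1.

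These calls rested on few libraries, and those higher in AAA on few control UMIs. In control mice 1 to 3 Col1a1 had 5, 3 and 2 UMIs and Igfbp4 8, 5 and 4. Ctsd had 10, 2 and 1 there, Rps19 5, 1 and 1, and Bc1 1, 1 and 1. Igfbp4 overlapped between the groups, at 17.2 per 10000 in AAA mouse 3 and 25.8 in control mouse 3. With the embedding pair as a block 3 calls remained (Tagln, Myl9 and Acta2). DESeq2 called 5, the same 3 with Flna and Tpm2. Both fits called 0 genes higher in AAA. Without control mouse 1 there were 3 calls, of which only Tagln was among the 13, without AAA mouse 1 there were 5, and with no low-count filter 0 of 13113 (704 at an unadjusted p under 0.05; DESeq2 was not run on those). Whether these differences were particular to hexagons with globin was tested by the same contrast against hexagons with 0 globin UMIs. None of 514 genes passed (0 by edgeR, 19 at an unadjusted p under 0.05).

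Counted among kept hexagons, positive hexagons were mostly single. The 359 section hexagons under 50 genes with 2 or more globin UMIs could not count as neighbors here, and their part was not tested. Joined when they touched, the 126 formed 99 groups, of which 18 held 2 or more hexagons (45 in all) and the largest held 4. Another globin-positive hexagon lay within 45 μm of 31.8% of them on average over mice, against 10.1% for other hexagons. By mouse the values were 35.1%, 26.1% and 23.1% in AAA mice 1 to 3, against 9.50%, 8.86% and 4.39%, and 46.7%, 60.0% and 0% in control mice 1 to 3, against 14.9%, 19.1% and 4.10%. For the globin level around them, section hexagons of any gene count were taken, with positive ones left out. Globin in these surrounding hexagons averaged 0.490 ± 0.481% of UMIs (SD, n = 6) within 25 μm of a positive hexagon and 0.224 ± 0.0859% at 180 to 360 μm. That fall was large in control mouse 1 (1.37% against 0.215%) and control mouse 2 (0.701% against 0.381%) and present in AAA mouse 2 (0.363% against 0.211%), and in the other 3 mice the nearest value was below the farthest. Depth also changed with distance: in AAA mouse 1, 298 hexagons of the nearest ring held 28265 UMIs and 10878 of the farthest held 296480. In that mouse globin was 0.253% of UMIs in hexagons under 50 genes, against 0.0932% in other kept hexagons. The part of depth in these ring values was not tested.

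As to the tissue around them, hexagons were classed by 3 or more UMIs of the smooth muscle, collagen, macrophage or adipocyte list, or 1 or more of the endothelial list. Of the 126 positive hexagons 26 were themselves of the smooth muscle class (20.6%, against 14.8% of other hexagons), 34 of the collagen class (26.98% against 21.5%), 27 of the endothelial class (21.4% against 14.4%), 10 adipocyte, 9 macrophage and 49 of none. These shares pool mice and conditions, and control mice held 33 of the 126 positive hexagons but 1462 of all 11650 kept hexagons. Deeper hexagons also reach a fixed UMI count more easily, and positive hexagons had a median of 98 UMIs, against 76 in others. The part of either in these shares was not tested. A smooth muscle hexagon lay within 45 μm of 74.2% of positive and 66.7% of other hexagons on average over mice. The difference was 7.52 ± 11.3 percentage points (SD, n = 6; exact sign-flip permutation p = 0.188, adjusted over 7 places p = 0.583). For collagen hexagons it was 6.36 ± 17.6 points (exact p = 0.438, adjusted 0.766), for adipocyte hexagons -0.201 ± 9.72 and for endothelial hexagons -0.277 ± 10.4 points.

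Macrophage hexagons within 45 μm were counted in the same way. In AAA mice 1 to 3, 61.4% (35 of 57), 56.5% (13 of 23) and 53.8% (7 of 13) of positive hexagons had one, against 42.7%, 44.4% and 31.5% of the other hexagons. In control mice 1 to 3 the values were 13.3% (2 of 15), 0% (0 of 15) and 0% (0 of 3), against 7.22%, 6.63% and 6.27%, so few control hexagons could show a difference. The difference was positive in 3 of 3 AAA mice (mean 17.7 ± 5.17 points) and in 1 of 3 controls (-2.26 ± 7.25 points). An exact permutation test of the AAA minus control difference, 20.0 points, gave p = 0.1, the smallest possible, and did not hold after adjustment over 8 measures (0.8). Over all 6 mice the difference between positive and other hexagons was 7.72 ± 12.3 points (exact sign-flip p = 0.25, adjusted 0.583). The number of kept hexagons within 45 μm, which bears on finding any class, averaged 11.7, 8.61 and 9.92 around positive hexagons of AAA mice 1 to 3, against 10.95, 10.8 and 9.07 around others. In control mice 1 to 3 it was 9.47, 7.13 and 5.67, against 8.02, 6.05 and 6.17, and its part in these differences was not tested.

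The depth in the wall was described by the distance of a hexagon from the smooth muscle hexagons in the same direction from the section's center, positive when outward, for 120 of the 126. The median of positive hexagons was 68.7, -24.9 and 121 μm in AAA mice 1 to 3, against 55.0, 28.6 and 42.7 μm for other hexagons. In control mice 1 to 3 it was -14.3, -4.69 and 26.61 μm, against 11.9, 0 and 0 μm. Inward of the smooth muscle lay 24.6%, 55.0% and 7.69% of positive hexagons in the AAA mice, against 34.9%, 39.2% and 36.3% of others. In the control mice 60.0%, 58.3% and 0% lay inward, against 36.9%, 48.6% and 48.5%. The mice thus went both ways, with a mean difference of 5.76 ± 45.8 μm (SD, n = 6; exact sign-flip permutation p = 0.781, adjusted 0.969). Among the 11 of 10 or more globin UMIs, offsets ran from -80.5 to 391 μm, with none available for the hexagon of 68 in control mouse 2. The outermost were those of section 3 of AAA mouse 1, at 391 and 362 μm with 62 and 23 globin UMIs, and both had smooth muscle, collagen, macrophage and endothelial hexagons within 45 μm. The hexagon of 100 globin UMIs in control mouse 2 lay 83.4 μm outward and held 3 smooth muscle UMIs, so it was itself of the smooth muscle class. Within 45 μm it had an endothelial hexagon but no other smooth muscle hexagon and no collagen or macrophage hexagon.

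**Figure D5:**
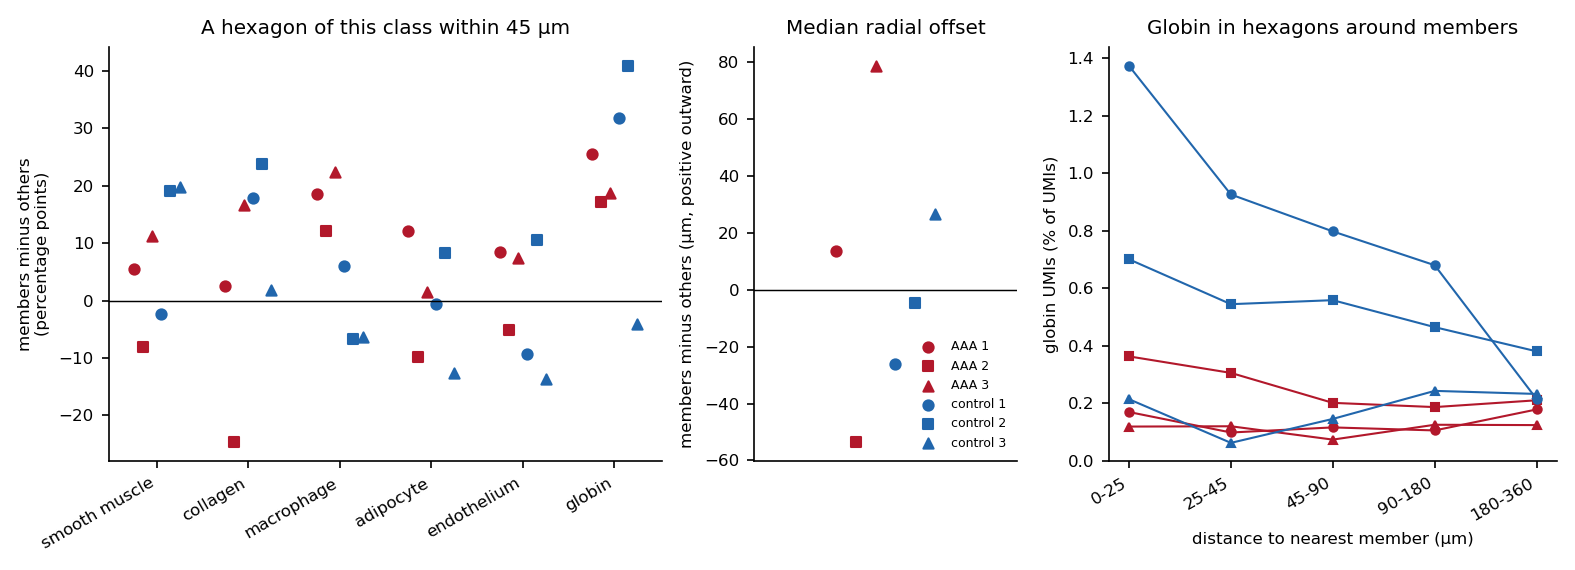
Left: percentage of positive hexagons with a hexagon of the named class within 45 μm minus that of other kept hexagons, 1 point per mouse (red AAA, blue control). Middle: difference of the median radial offset in μm, positive outward. Right: globin UMIs as a percentage of UMIs in hexagons at increasing distance (μm) from the nearest positive hexagon; macrophage points of the 3 AAA mice lie from 12.1 to 22.3 and those of the controls from -6.63 to 6.11.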

How the data were processed

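UMI counts were deposited by the authors as 1 matrix of 32285 genes at 9837644 spatial barcodes, made with STARsolo 2.7.5c on mm10, with exonic and whole-gene counts and no normalization. The matrix pools all sections, and sections were placed on lane 2 by 38 section edges read from the study's supplementary picture of the array (residual SD 166 μm, 2421 μm with the opposite order). Exonic counts were summed in hexagons with 12 μm sides at 26.6 position units per μm, after 8551 genes starting with mt or Gm were dropped. Hexagons with 50 or more genes were kept (the study used 75).

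The replicate was the mouse. UMIs summed per mouse and class, without the 4 globin genes, were compared by edgeR's quasi-likelihood test (version 4.0.16) after filterByExpr and TMM scaling, with Benjamini-Hochberg adjustment over all genes tested, with DESeq2 1.42.0 as an alternative. Single values were compared by exact permutation over mice, or by exact sign flips of within-mouse differences (SciPy 1.17.1). The fits were tested on simulated data. Named genes were the globin genes, up to 15 genes each way past the threshold and moving alike in all mice (or without overlap between groups), list genes with 20 or more UMIs in positive hexagons and the 5 genes of highest count there. The members and lists were chosen with earlier results of these data known. The pair number marks an AAA and a control aorta embedded together, and deviations of paired mice correlated at 0.118, 0.171 and 0.260 over 216 genes. Sequences and coordinates are from the GRCm38 reference transcripts. Lane 1 and the tissue before the first section entered no comparison. Alternatives were other thresholds of globin and genes, whole-gene counts, a shifted grid, thinning to 50 UMIs, other distances, scalings and filters, and leaving out each mouse.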

Additional observations from a re-analysis of the deposited data

Results flagged for a closer look

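Section 3 of AAA mouse 1 lay far above the other AAA sections, with globin at 0.240% of UMIs in kept hexagons, where the next highest of the 10 AAA sections had 0.156%. Section 2 of control mouse 2 lay far above the other control sections, with 2.11% where the next highest of the 10 had 0.850%. In all, 26 groups of values were examined for such a far value and 2 had one, and chance gives about 1 in 20 for independent values. Sections of the same mouse are not independent, and the next highest control section was also from control mouse 2. Without the highest hexagon of each, globin was 0.172% in the first section and 1.02% in the second.

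Tissue before the first section, which entered no comparison, also held globin. Of its 2603 kept hexagons 90 (3.46%) had 2 or more globin UMIs, against 2.26% of the pooled control hexagons of the sections. The hexagons before the first section were deeper, with a mean of 181 UMIs against 81.9 in controls, and their globin share was lower, at 0.132% of UMIs against 0.374%.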

How the results depend on the processing

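Positive shares and globin percentages kept their direction, lower in AAA, under every alternative run, without passing the test. Leaving out 1 mouse gave differences of -2.17 to -0.614 percentage points for the share and -0.457 to -0.0232 for the globin percentage. With the embedding pair as a block the share differed by -1.39 (exact p = 0.25, the smallest for 3 pairs) and the globin percentage by -0.288 (exact p = 0.5), and 0 genes of positive hexagons passed between AAA and control.

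Small differences of place turned sign, and 0 of 54 recomputed place values passed (smallest adjusted exact p 0.219). With 1 or more globin UMIs the adipocyte difference was 0.267, the endothelial 0.539 and the radial offset -8.34 μm. Whole-gene counts gave 1.83, 9.41 and -35.2 μm and the shifted grid 3.68, 0.946 and -7.93 μm. Within 30 μm the adipocyte difference was 3.13, the endothelial 2.25 and the collagen -3.68, and within 90 μm the adipocyte difference was 2.82. At 75 or more genes the endothelial difference was 1.49 and the smooth muscle difference -7.74. Leaving out 1 mouse gave -2.65 to 2.27 (adipocyte), -2.45 to 2.40 (endothelial) and -8.83 to 17.6 μm (offset). The causes were not tested.

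Genes called between positive and other hexagons numbered 42 on whole-gene counts, 1377 with no low-count filter, where 1376 were lower, and 0 to 1 when 1 mouse was left out. Actb had a log2 fold change of 0.072 with 1 or more globin UMIs. AAA against control gave 13 genes with 1 or more globin UMIs, and for these hexagons DESeq2 gave 5, the replicate block 3, no low-count filter 0, and leaving out 1 mouse 3 to 14. In positive hexagons no value could be had at 3 or more globin UMIs or on whole-gene counts, where fewer than 2 genes passed the filter. Depth limits the controls most, with 247 non-globin UMIs in the positive hexagons of control mouse 3.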
